A study of Mus musculus with 18 samples.

Results

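Immediate early genes were followed in whole lung of perinatal mice in which sterol signaling of the respiratory epithelium had been altered. The members are the 10 genes *Fos*, *Fosb*, *Jun*, *Junb*, *Egr1*, *Egr2*, *Ier2*, *Ier3*, *Dusp1* and *Nr4a1*, and each was represented by the probe set whose only gene symbol was that name, which gave 10 probe sets of the 35556 on the array. Total RNA of 18 lungs was hybridized to 18 Affymetrix Mouse Gene ST arrays, in 6 groups of 3, and each value below is a log2 signal of 1 probe set on 1 array. Because the brightness of a probe set depends on its probes, levels were compared between arrays and never between genes.

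In the *Scap* line, pups with SP-C-rtTA, (tetO)7CMV-Cre and *Scap* flox/flox (ScapΔ/Δ; genotype Scap-/- in the labels) were set against flox/flox littermates that lacked rtTA or Cre. These lungs were taken at E18.5 (controls C7, C8 and C9, deleted KO10, KO11 and KO12) and at PN1, the day of birth (controls C13, C14 and C15, deleted KO16, KO17 and KO18). In the *Insig* line at E17.5, *Insig1* flox/flox, *Insig2*-/- pups with both transgenes (Insig1/2Δ/Δ; Insig-/- in the labels: KO22, KO23 and KO24) were set against littermates without one of them (C19, C20 and C21), so those controls lacked *Insig2* as well. Dams of both lines ate doxycycline chow in early to mid gestation and not afterwards. The *Scap* colony was of mixed FVB/N and B6/129S6 background. Cre was driven through the surfactant protein C promoter, so the deletion was epithelial while the RNA came from whole lung, in which fewer cells of a type and less RNA per cell cannot be told apart. The 3 arrays of a group were biological replicates by the methods, but nothing states whether they came from separate litters, and p-values measure the spread between these arrays alone.

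Immediate early genes are switched on within minutes of a stimulus without any new protein having to be made, and their transcripts are short-lived. Growth factors, stretch, calcium and stress reach them through MAP kinases and through serum response factor with its partners, which bind CArG boxes, and through CREB, which binds cAMP response elements (CRE). In tissue they also respond to the way an animal was killed and an organ taken. In this study fetuses at E17.5 and E18.5 were delivered by Cesarean section under anesthesia and exsanguinated, whereas newborns at PN1 had been born and received pentobarbital before exsanguination, and all lungs were flash frozen. Stage therefore cannot be told apart from mode of delivery, first breathing and euthanasia.

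RefSeq (GRCm38.p6) gave promoter windows for 8 of the 10 members, all but *Egr1* and *Ier2*. The 250 bases before the start are shown for the 4 members whose level rose from E18.5 to PN1 in 1 or both genotypes and that have a window (*Dusp1*, *Egr2*, *Fosb*, *Nr4a1*), and for *Fos*. Each sequence reads 5′ to 3′ toward the start, with the motifs found in capitals:
Dusp1, chr17:26508473-26508722, minus strand: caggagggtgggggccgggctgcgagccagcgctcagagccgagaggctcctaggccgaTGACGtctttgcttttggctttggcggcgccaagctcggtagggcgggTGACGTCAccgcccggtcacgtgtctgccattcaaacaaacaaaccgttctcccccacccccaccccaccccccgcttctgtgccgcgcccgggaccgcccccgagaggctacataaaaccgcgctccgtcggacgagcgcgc
Egr2, chr10:67537619-67537868, plus strand: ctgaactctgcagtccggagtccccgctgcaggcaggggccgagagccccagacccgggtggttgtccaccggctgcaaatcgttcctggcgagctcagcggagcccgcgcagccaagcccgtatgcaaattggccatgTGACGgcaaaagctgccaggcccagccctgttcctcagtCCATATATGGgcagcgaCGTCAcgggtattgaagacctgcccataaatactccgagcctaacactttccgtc
Fos, chr12:85473640-85473889, plus strand: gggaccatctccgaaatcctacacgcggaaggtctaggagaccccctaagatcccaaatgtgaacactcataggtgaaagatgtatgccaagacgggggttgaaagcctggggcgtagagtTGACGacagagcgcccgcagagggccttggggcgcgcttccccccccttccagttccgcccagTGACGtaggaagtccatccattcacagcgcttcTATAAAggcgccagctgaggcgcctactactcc
Fosb, chr7:19310046-19310295, minus strand: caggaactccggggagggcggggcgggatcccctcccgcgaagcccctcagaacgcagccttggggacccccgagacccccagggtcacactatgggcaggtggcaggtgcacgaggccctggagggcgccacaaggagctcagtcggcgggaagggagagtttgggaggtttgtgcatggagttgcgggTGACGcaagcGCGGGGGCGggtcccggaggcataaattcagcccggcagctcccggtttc
Nr4a1, chr15:101266596-101266845, plus strand: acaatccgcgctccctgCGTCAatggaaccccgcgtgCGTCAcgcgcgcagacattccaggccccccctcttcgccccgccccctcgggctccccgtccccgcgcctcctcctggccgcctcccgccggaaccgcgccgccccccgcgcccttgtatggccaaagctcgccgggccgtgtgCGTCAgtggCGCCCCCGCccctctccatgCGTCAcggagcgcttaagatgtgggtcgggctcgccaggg
The letters searched, on both strands, were the CArG box, the CRE TGACGTCA, its core TGACG (which the CRE contains, so that a CRE is counted under both), the AP-1 site TGANTCA, the EGR site GCGNGGGCG and the TATA box TATAAA. A CArG box was found in *Egr2* only of the 8 members, in 4 of its 5 windows and between 72 and 63 bases before the start in the one shown, against 1.47% of all 32851 windows. A full CRE was found in *Dusp1* only, 143 to 136 bases before the start, against 1.55% of all windows. The core was in 6 of 8 members (*Fos*, *Fosb*, *Junb*, *Egr2*, *Dusp1* and *Nr4a1*) against 17.8%, and *Nr4a1* held 4 copies. The EGR site was in *Fosb* and *Nr4a1* against 4.7%, the TATA box in *Fos* against 12.4%, and the AP-1 site in no member against 6.75%. The windows of *Jun* and *Ier3* held none of these letters. These are matches of letters in a short window and not measured binding.

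All 10 members passed the filter on low signal in both lines, which kept 22800 probe sets of the *Scap* arrays and 22775 of the *Insig* arrays. *Egr2* (6.83 to 8.36) and *Fosb* (6.76 to 7.78) were weak, with many values below the array medians of 7.42 to 7.70. A filter at the 50th percentile dropped both and kept the other 8 members. Lung markers (13 of 13, among them *Sftpc*, *Nkx2-1* and *Ager*) were above that filter level on all 18 arrays, and of 6 thymus markers *Rag1*, *Dntt*, *Cd8b1* and *Themis* were below it on all 18, whereas *Ptcra* and *Cd3e* were above it on all 18. KO17 and KO18 stood apart: over all probe sets their r was 0.9944 with each other and 0.9312 to 0.9599 with any of the 16 remaining arrays, which reached 0.9729 to 0.9975 pairwise. Both belong to the ScapΔ/Δ group at PN1, so counts of members called in comparisons with that group are also given without them or without KO16. Most results there on genes that are not members, cell type markers included, are given with all arrays of the group only. How far those results depend on KO16, KO17 or KO18 is not shown.

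Every member had its highest group mean in the PN1 controls. The PN1 ScapΔ/Δ lungs came second for 8 of the 10. When the 6 groups were placed in order of their means, 45 of the 50 neighboring pairs overlapped in their single arrays, so the order below PN1 is mostly not resolved. The share of such pairs over all probe sets was not computed. The neighbors that did not overlap were, for *Fosb*, the E18.5 controls below the PN1 ScapΔ/Δ lungs, for *Dusp1* both steps from the E18.5 ScapΔ/Δ lungs through the E18.5 controls to the PN1 ScapΔ/Δ lungs, for *Ier2* the *Insig* controls below the E18.5 *Scap* controls, and for *Nr4a1* the Insig1/2Δ/Δ lungs below the PN1 ScapΔ/Δ lungs. The pairs of *Ier2* and *Nr4a1* set the *Insig* line at E17.5 against the *Scap* line at a later stage. Line and stage cannot be told apart in them. Over all 18 arrays *Egr1* spanned 1.98 log2 units and *Fos* 1.94, and *Jun* spanned 0.47.

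**Figure D1:**
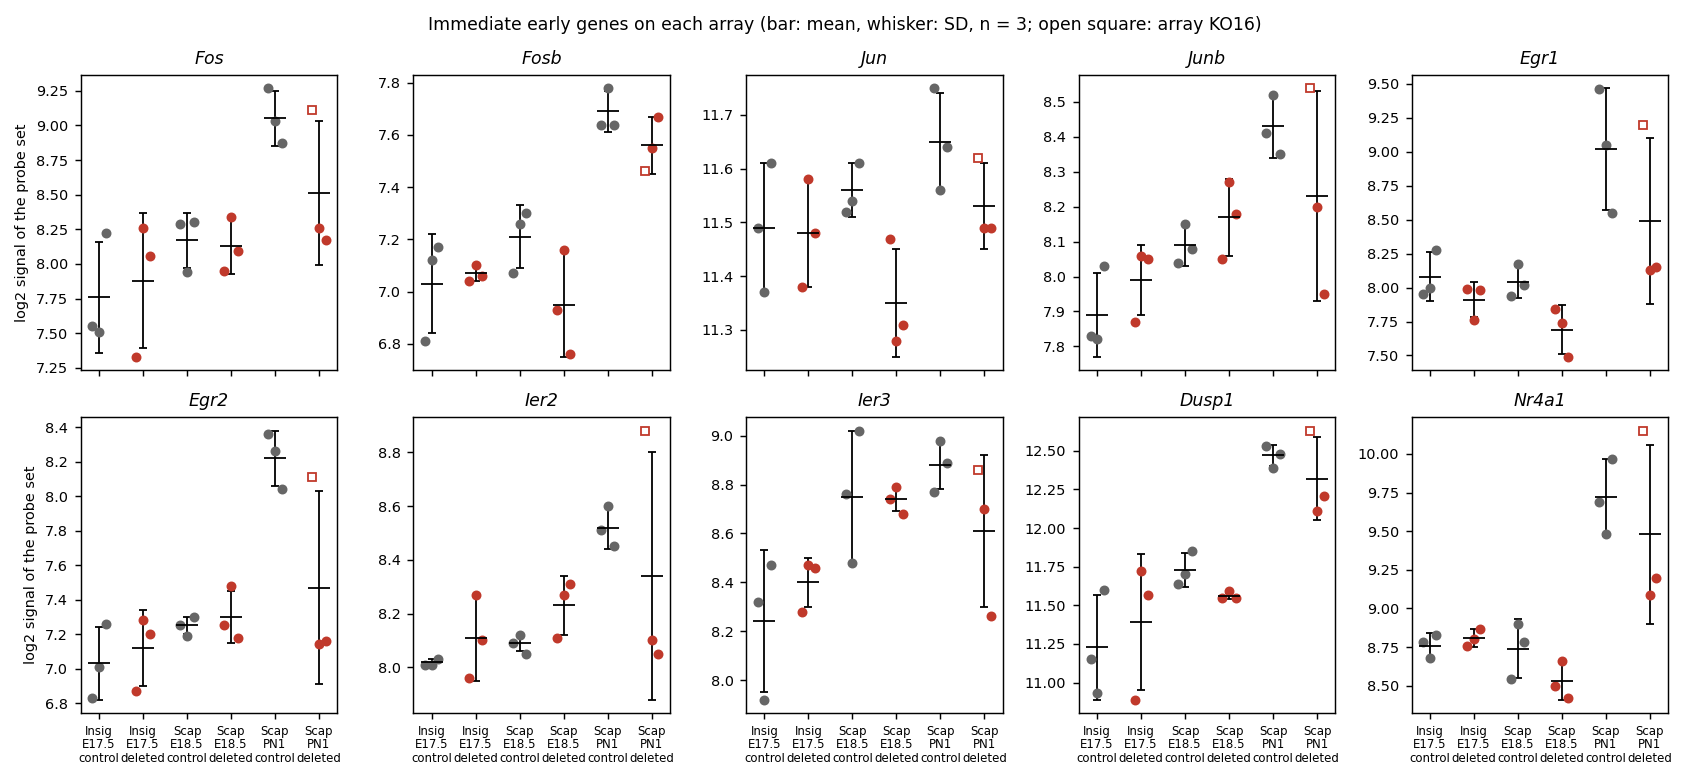
Log2 signal of each immediate early gene (y axis, 1 panel per gene with its own scale) on the 18 arrays, grouped by line, stage and genotype (x axis; gray control, red deleted). Bars are means and whiskers SD of 3 arrays, and the open square is KO16. In 8 of the 10 panels all 3 PN1 controls lie above all 3 E18.5 controls, and KO16 lies above the other deleted PN1 lungs in every panel but *Fosb*.

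The first question was how the members changed between E18.5 and birth in control lungs. All 10 were higher at PN1, with a median log2 difference of 0.60 against 0.01 over all probe sets tested. 2 of the 10, *Dusp1* and *Egr2*, passed the test (limma over the 12 *Scap* arrays, Benjamini-Hochberg adjusted p under 0.05), where 1.19% of all probe sets were called higher. In 8 of the 10 every PN1 control was above every E18.5 control, against 17.6% of all probe sets, and the same 8 had an unadjusted p under 0.05, against 6.21%. *Jun* and *Ier3* were the exceptions.

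*Dusp1* encodes the dual specificity phosphatase that switches MAP kinases off. Its log2 signal was 11.64, 11.70 and 11.85 in the E18.5 controls and 12.53, 12.39 and 12.48 in the PN1 controls. The lowest newborn lung thus lay above the highest fetal one, and the difference was 0.73 (SE 0.12, 1.66-fold, limma adjusted p = 0.013). In the ScapΔ/Δ lungs *Dusp1* was 11.55, 11.59 and 11.55 at E18.5 and 12.63, 12.11 and 12.21 at PN1, again with no overlap. That difference was 0.76 (SE 0.12, 1.69-fold, adjusted p = 0.00414), and the stage differences of both genotypes differed by 0.02 (SE 0.17, adjusted p = 0.932).

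*Egr2* encodes a zinc finger transcription factor of the early growth response family. It was 7.25, 7.19 and 7.30 in the E18.5 controls and 8.36, 8.26 and 8.04 in the PN1 controls, groups that did not overlap. The difference was 0.97 (SE 0.22, 1.96-fold, limma adjusted p = 0.0479). The ScapΔ/Δ lungs had *Egr2* at 7.25, 7.48 and 7.18 at E18.5 and 8.11, 7.14 and 7.16 at PN1. KO16 lay within the range of the newborn controls and KO17 and KO18 below all 3 fetal lungs of their genotype, and the difference of 0.16 (SE 0.22, adjusted p = 0.552) did not pass.

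*Egr1*, its close relative with the same type of DNA-binding domain, was 7.94, 8.17 and 8.02 in the E18.5 controls and 9.46, 9.05 and 8.55 in the PN1 controls. The newborn lungs were all higher but spread over almost a log2 unit, and the difference of 0.98 (SE 0.29, 1.98-fold) had an adjusted p of 0.12 in limma. In ScapΔ/Δ lungs *Egr1* was 7.84, 7.74 and 7.49 at E18.5 and 9.20, 8.13 and 8.15 at PN1. These groups did not overlap either, and the difference of 0.80 (SE 0.29, 1.74-fold, adjusted p = 0.0494) passed narrowly.

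*Nr4a1* encodes an orphan nuclear receptor. It was 8.54, 8.90 and 8.78 in the E18.5 controls and 9.69, 9.48 and 9.97 in the PN1 controls. The 2 groups were separate, with a difference of 0.97 (SE 0.24, 1.96-fold, limma adjusted p = 0.0684). In ScapΔ/Δ lungs it was 8.50, 8.66 and 8.42 at E18.5 and 10.15, 9.09 and 9.20 at PN1, and the difference of 0.95 (SE 0.24, 1.93-fold, adjusted p = 0.0201) passed. The order of the newborn controls was not that of *Egr1*: C15 had the highest *Nr4a1* and the lowest *Egr1* of the 3.

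*Fos*, *Fosb*, *Jun* and *Junb* encode subunits of the AP-1 transcription factor. *Fos* was 8.29, 7.94 and 8.30 in the E18.5 controls and 9.27, 9.03 and 8.87 in the PN1 controls, a difference of 0.88 (SE 0.23, 1.84-fold, limma adjusted p = 0.0774) with no overlap. With *Scap* deleted, *Fos* was 7.95, 8.34 and 8.09 at E18.5 and 9.11, 8.26 and 8.17 at PN1. KO16 was at the level of the newborn controls and KO17 and KO18 were within the fetal range, and the difference of 0.38 (SE 0.23, adjusted p = 0.19) did not pass. *Fosb* was 7.07, 7.26 and 7.30 in the E18.5 controls and 7.64, 7.78 and 7.64 in the PN1 controls (difference 0.48, SE 0.11, adjusted p = 0.0564). Its values in ScapΔ/Δ lungs were 6.93, 7.16 and 6.76 at E18.5 and 7.46, 7.55 and 7.67 at PN1, and its rise of 0.61 (SE 0.11, 1.52-fold, adjusted p = 0.00678) passed. Unlike most members, *Fosb* was not highest in KO16 among the 3 newborn ScapΔ/Δ lungs but lowest.

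*Junb* in the controls went from between 8.04 and 8.15 to between 8.35 and 8.52 (difference 0.34, SE 0.13, limma adjusted p = 0.27). *Ier2*, a small immediate early nuclear protein, went from between 8.05 and 8.12 to between 8.45 and 8.60 (difference 0.43, SE 0.18, adjusted p = 0.324). Both were separate between the stages without passing the test. *Jun* differed by 0.09 (SE 0.08, adjusted p = 0.801), and *Ier3*, a stress-induced regulator of cell survival, by 0.12 (SE 0.16, adjusted p = 0.921), and in both the arrays of the 2 stages overlapped. *Jun* in ScapΔ/Δ lungs was higher at PN1 in every array (difference 0.18, SE 0.08, adjusted p = 0.0988).

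In the ScapΔ/Δ lungs as a group, 4 of the 10 members rose from E18.5 to PN1 (*Dusp1*, *Fosb*, *Nr4a1* and *Egr1*) and none fell, but 17.5% of all probe sets were called higher there, so this count reads against a large background. 5 members (these 4 and *Jun*) did not overlap, against 16.7%. The median difference of the 10 was 0.28 against -0.03 over all probe sets.

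**Figure D2:**
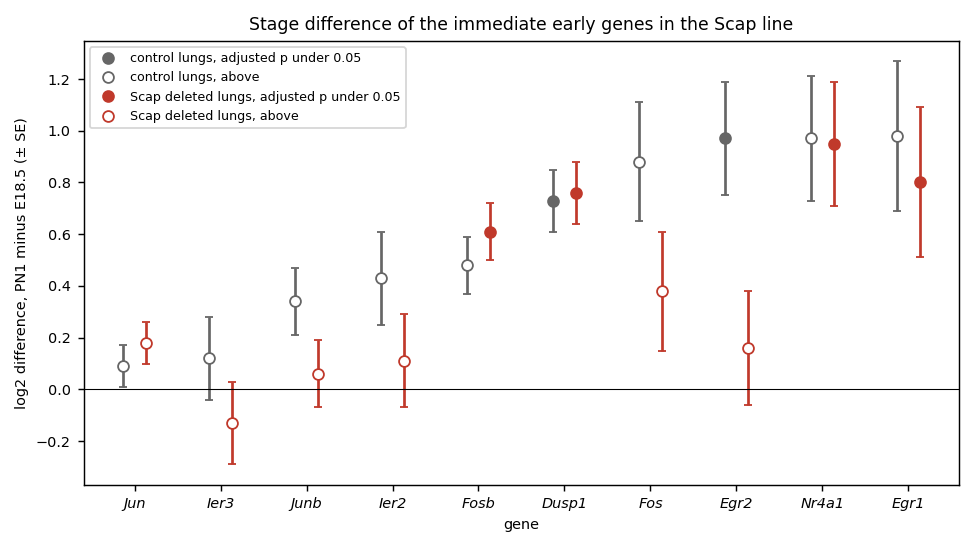
Log2 difference PN1 minus E18.5 (y axis, ± SE of the limma fit over 12 arrays) for each immediate early gene (x axis, ordered by the control value) in control lungs (gray) and ScapΔ/Δ lungs (red). Filled points had an adjusted p under 0.05: *Dusp1* and *Egr2* in controls, and *Dusp1*, *Fosb*, *Nr4a1* and *Egr1* in ScapΔ/Δ lungs.

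How many members passed depended on which arrays set the spread. With only the 6 control arrays in the fit, 8 of 10 rose (all but *Jun* and *Ier3*), against 5.71% of all probe sets, with limma adjusted p from 0.00165 for *Egr2* to 0.0264 for *Egr1*. The same number passed in controls without KO16 (6.06% of all probe sets called higher) and without KO17 and KO18 (5.63%), since the 3 arrays of the newborn ScapΔ/Δ group lend their spread to the shared fit. In the fit over 12 arrays the count in controls was 0 without C7, C8 or C15 and 1 without C9, C13, C14, KO10, KO11 or KO12. In ScapΔ/Δ lungs 0 of 10 passed with only the 6 arrays of that genotype in the fit (0.0833% of all probe sets called higher), 4 by an unadjusted p under 0.05 in the fit over 12 arrays (24.6% of all probe sets) and 0 by the Student test of the methods. The count there was 2 without KO11 or KO12. The share of all probe sets called without 1 of C7 to C15 or KO10 to KO12 is not given. Whether the members or the whole array lost calls in those fits is therefore not shown. Without KO17 and KO18, with KO16 alone assumed to vary like the other groups, 6 passed (*Fos*, *Egr1*, *Egr2*, *Ier2*, *Dusp1* and *Nr4a1*, against 3.07%).

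Further primary response genes, a list of 46 of which 44 were tested, moved in both directions. In controls 9 rose to PN1 and 1 fell, where 1.19% of all probe sets were called higher and 1.39% lower. The list median was 0.10, against 0.01 over all probe sets. *Sgk1*, a serum and glucocorticoid regulated kinase, rose by 1.16 (SE 0.17, limma adjusted p = 0.00747), *Ccn1*, a matricellular protein induced by stretch, by 1.15 (SE 0.12, adjusted p = 0.0015), and *Ptgs2*, the inducible cyclooxygenase, by 1.05 (SE 0.24, adjusted p = 0.0469). *Gadd45g*, a growth arrest gene, fell by 1.06 (SE 0.19, adjusted p = 0.0155). *Atf3*, *Hbegf*, *Klf2*, *Klf4*, *Ccn2* and *Plk3* were the others that rose. After *Scap* deletion 10 of the 44 rose and 7 fell, where 17.5% of all probe sets were called higher and 20.1% lower, led by *Gadd45g* (-1.51), *Ccn1* (1.38), *Gadd45b* (-1.21) and *Sgk1* (1.08). *Ptgs2* fell there by 0.70 (SE 0.24, adjusted p = 0.0426), opposite to its rise in controls, and the difference between the 2 stage changes was -1.75 (SE 0.34) with an adjusted p of 0.265.

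Cell type markers moved with stage too. Of 8 neutrophil markers, 4 rose in controls (*Ngp* by 2.21, *S100a9* by 1.58, *Retnlg* by 1.54 and *Ly6g* by 1.27) and 6 in ScapΔ/Δ lungs, against 1.19% and 17.5% of all probe sets. The log2 of their summed level was 10.64 to 10.93 in the E18.5 controls and 12.16 to 12.46 in the PN1 controls, and 10.92 to 11.50 against 11.70 to 12.60 in ScapΔ/Δ lungs. Some markers of this list were weak: *Mpo* (6.68 to 7.35), *Elane* (7.02 to 7.39) and *Camp* (6.83 to 7.65) stayed near or below the array medians of 7.42 to 7.70. *Ly6g* was above the filter level on 11 of 18 arrays only. Hypoxia-induced genes moved the other way, with 5 of 12 called lower at PN1 in controls, led by *Ankrd37* (-1.58) and *Egln3* (-1.37), and 9 of 12 lower and 1 higher in ScapΔ/Δ lungs. Of all probe sets 1.39% were called lower in controls and 20.1% in ScapΔ/Δ lungs. Heat shock genes, 11 tested, gave 0 calls in controls by limma (1 by an unadjusted p under 0.05) and 5 lower in ScapΔ/Δ lungs, against the same 20.1%. There KO17 and KO18 had a mean of -0.43 and -0.44 relative to all arrays and KO16 one of 0.15. The part of neutrophils, of oxygen and of tissue handling in the stage difference of the members was not tested.

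**Figure D3:**
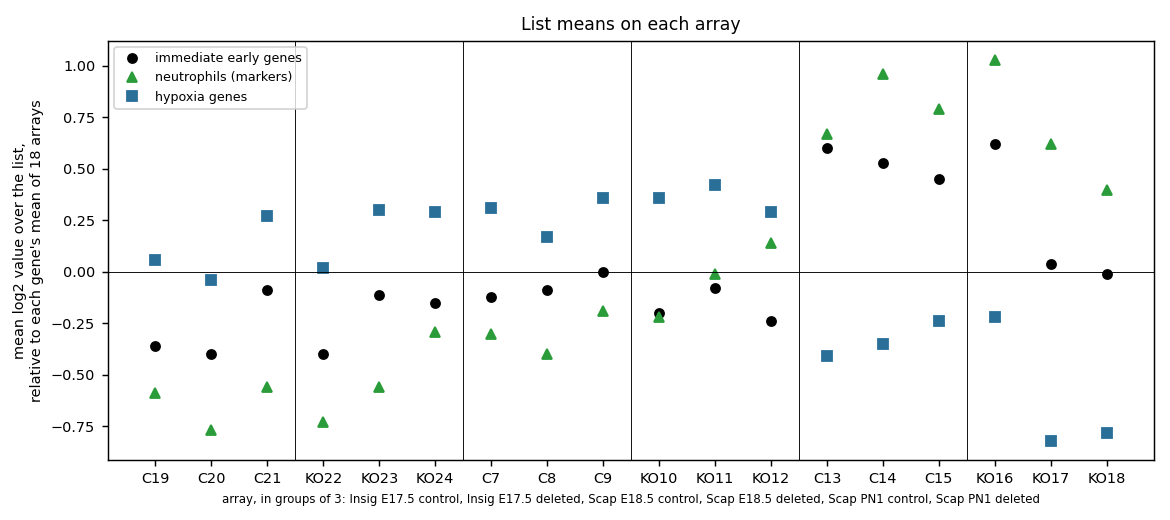
Mean log2 value of the 10 immediate early genes (circles), 8 neutrophil markers (triangles) and 12 hypoxia-induced genes (squares) on each array (x axis), relative to each gene's mean over the 18 arrays (y axis). The immediate early genes lie between 0.45 and 0.60 in the PN1 controls and at 0.62 in KO16, and no higher than 0.04 on any other array.

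The second question was whether deletion of *Scap* changed the members. At E18.5 none of the 10 passed (limma), where 0.00439% of all probe sets were called higher and as many lower, and none passed by the Student test. 2 were lower at an unadjusted p under 0.05, *Jun* and *Fosb*, against 4.85%. 3 members were below every control in all 3 ScapΔ/Δ lungs, *Jun*, *Egr1* and *Dusp1*, and none was above every control, but 35.5% of all probe sets were separate in 1 or the other direction. *Jun* was 11.52, 11.54 and 11.61 in controls and 11.47, 11.28 and 11.31 in ScapΔ/Δ lungs, a difference of -0.21 (SE 0.08, adjusted p = 0.535). *Egr1* differed by -0.35 (SE 0.29), *Dusp1* by -0.17 (SE 0.12) and *Fosb* by -0.26 (SE 0.11), and the 10 members ranged from -0.35 to 0.14 with a median of -0.11, against -0.04 over all probe sets.

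At PN1 all 10 members had a lower mean in ScapΔ/Δ lungs than in controls, where 57.9% of all probe sets did, and none passed (limma; 0.0% of all probe sets were called higher and 0.00877% lower). None passed by the Student test, 2 had an unadjusted p under 0.05 (*Egr2* and *Fos*, against 20.8% of all probe sets), and no member was separate between the genotypes in either direction, against 16.6%. The median was -0.22, against -0.06 over all probe sets. The differences were -0.75 for *Egr2* (SE 0.22, adjusted p = 0.0914), -0.54 for *Fos* (SE 0.23, adjusted p = 0.138), -0.53 for *Egr1* (SE 0.29), -0.24 for *Nr4a1* (SE 0.24) and -0.18 for *Ier2* (SE 0.18), and the other 5 lay between -0.27 and -0.12.

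These means hide a split among the 3 newborn ScapΔ/Δ lungs. *Ier2*, for which the controls lay between 8.45 and 8.60, reached 8.88 in KO16 but only 8.10 and 8.05 in KO17 and KO18. KO16 was thus above all controls and the other two below them. The same held for *Nr4a1* (controls 9.48 to 9.97), *Dusp1* (controls 12.39 to 12.53) and *Junb* (controls 8.35 to 8.52), and in *Fos*, *Egr1* and *Egr2* KO16 lay within the control range with KO17 and KO18 below it. KO16 gave the highest value of all 18 arrays for *Junb*, *Ier2*, *Dusp1* and *Nr4a1*. Without KO16, 8 of the 10 members were lower in ScapΔ/Δ lungs (all but *Fosb* and *Jun*), but so were 37.8% of all probe sets. Without KO17 and KO18 none passed, and the values of *Fos* (0.06), *Egr1* (0.18), *Ier2* (0.36) and *Nr4a1* (0.43) turned to higher. With array weights, which gave KO16 a weight of 0.0489 and KO17 one of 10, 7 members were lower, against 41.3% of all probe sets.

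**Figure D4:**
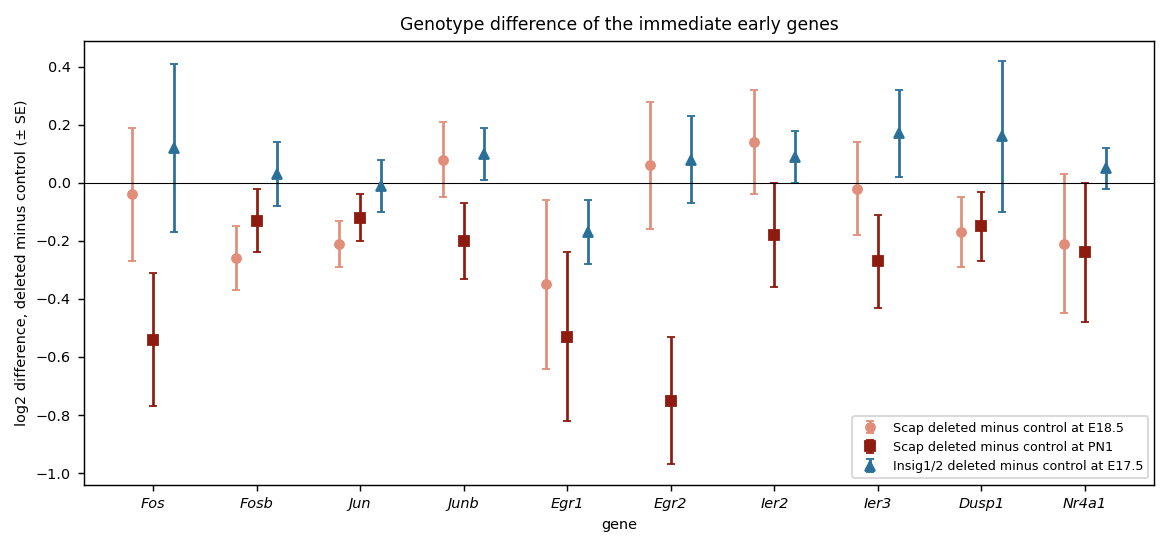
Log2 difference deleted minus control (y axis, ± SE of the limma fit) of each immediate early gene (x axis) for *Scap* at E18.5 (circles), *Scap* at PN1 (squares) and *Insig1/2* at E17.5 (triangles). No point passed an adjusted p under 0.05, and all 10 squares lie below 0, from -0.75 for *Egr2* to -0.12 for *Jun*.

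The effect of *Scap* deletion was not shown to differ between the stages for any member: 0 of 10 passed that test in limma, where 0.0% of all probe sets did, and 1 member, *Egr2*, had an unadjusted p under 0.05 (lower, against 10.1%). The difference of the effects was -0.81 for *Egr2* (SE 0.31, adjusted p = 0.265) and -0.50 for *Fos* (SE 0.32, adjusted p = 0.315). Without KO16 it passed for *Egr2*, *Fos*, *Junb* and *Ier2*, against 33.5% of all probe sets called lower, and with array weights for 5 members, against 36.6%. Among the further primary response genes none passed in either genotype comparison by limma. At E18.5 2 higher and 4 lower of the 44 had an unadjusted p under 0.05, and at PN1 2 higher and 16 lower. Of all probe sets, the fetal comparison gave 4.39% in the upward direction and 4.85% in the downward one, and the newborn comparison 11.5% and 20.8%. The largest differences among those with separate groups were *Ptgs2* (0.91), *Atf3* (0.62) and *Ccn1* (-0.39) at E18.5 and *Cited2* (-0.81), *Gadd45b* (-0.60) and *Zfp36l1* (-0.45) at PN1. By the Student test none passed either.

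The third question was whether loss of *Insig1* on the *Insig2*-/- background changed the members at E17.5. None passed in limma (0.0% of all probe sets called in either direction), 0 had an unadjusted p under 0.05, none passed by the Student test and none was separate in either direction, where 5.83% of all probe sets were separate and higher and 4.22% separate and lower. With array weights, whose estimation did not converge, 5 members were called higher, against 18.4% of all probe sets, and 1 lower, against 18.3%. The 10 differences ranged from -0.17 to 0.17 with a median of 0.09, against 0.01 over all probe sets. *Fos* differed by 0.12 (SE 0.29) and *Dusp1* by 0.16 (SE 0.26), and the size of these errors came from spread within the groups. Of the further primary response genes none passed (0 at an unadjusted p under 0.05), and *Ier5* (0.14) and *Hbegf* (0.11) were separate.

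*Fos* was 7.55, 7.51 and 8.22 in the *Insig* controls and 7.33, 8.26 and 8.06 in Insig1/2Δ/Δ lungs. *Dusp1* was 11.15, 10.93 and 11.60 in the controls and 10.89, 11.72 and 11.57 in Insig1/2Δ/Δ lungs. In both genes C19, C20 and KO22 were low and C21, KO23 and KO24 high, a split that crosses genotype. Over all probe sets the first 3 arrays correlated among themselves at r = 0.9960 to 0.9967, the other 3 at 0.9932 to 0.9955, and arrays of different sets at 0.9840 to 0.9914. The hypoxia-induced genes followed the same split, with means of 0.06, -0.04 and 0.02 against 0.27, 0.30 and 0.29. Other lists did too. Glucocorticoid-induced genes were at -0.15, -0.26 and -0.20 against 0.21, 0.21 and 0.12. Lung markers were at -0.14, -0.21 and -0.18 against 0.06, 0.09 and -0.02. Upstream signal and transcription factors went the other way, with 0.18, 0.14 and 0.13 against 0.09, 0.02 and -0.06. C21 also had far more signal of cardiac muscle markers than any other array (mean 1.64, where the other 17 lay between -0.60 and 0.29). The labels name no batch within the line, and the part of these differences in the members was not tested.

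Members also varied together among lungs of the same group. Deviations of each array from its group mean were compared over the 18 arrays (the 3 deviations of a group sum to 0, so they hold less information than 18 independent values). *Fos* was set against the 9 other members, and 8 of the 9 relations passed by Pearson's r and 7 by Spearman's rho (permutation test of 100000 resamples, adjusted over the 9). How many of all probe sets would pass with *Fos* was not computed, so these counts cannot be called particular to the members. The shuffles moved deviations freely between groups. A shuffle within groups, which the subtracted group means call for, was not run, so the permutation p-values can be too small. The closest were *Egr2* (r = 0.89, rho = 0.94) and *Dusp1* (r = 0.89, rho = 0.88), each with a permutation p of 1e-05 by both measures, the smallest these resamples can give, and an adjusted p of 4.5e-05. *Junb* (r = 0.79, rho = 0.79), *Ier2* (r = 0.73, rho = 0.67), *Ier3* (r = 0.64, rho = 0.58) and *Jun* (r = 0.62, rho = 0.60) followed, with permutation p of 8e-05, 0.00022, 0.00396 and 0.0062 for r and 0.00023, 0.0031, 0.013 and 0.0106 for rho. *Egr1* (r = 0.56, permutation p = 0.0167, adjusted 0.0215; rho = 0.46, permutation p = 0.0584) and *Nr4a1* (r = 0.51, permutation p = 0.0277, adjusted 0.0312; rho = 0.51, permutation p = 0.0324) were looser, and *Fosb* did not pass (r = 0.09, permutation p = 0.736; rho = 0.09, permutation p = 0.737).

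Without KO16 and KO22, the 2 arrays farthest from the median deviation of *Fos*, r was 0.88 for *Egr2*, 0.83 for *Dusp1*, 0.69 for *Junb*, 0.60 for *Ier2* and 0.58 for *Ier3*, and these 5 still passed. The calls of *Jun* (0.51, adjusted permutation p = 0.0644) and *Egr1* (0.50, adjusted permutation p = 0.0646) were lost with r little changed and fewer arrays, whereas *Nr4a1* fell to 0.29 and *Fosb* was at 0.22. By Spearman's rho 3 passed there (*Egr2*, *Dusp1* and *Junb*). Within the 12 *Scap* arrays 7 relations passed by r (all but *Jun*, 0.37, and *Fosb*, -0.18) and 2 by rho (*Egr2* and *Dusp1*). Within the 6 *Insig* arrays 3 passed by r in an exact permutation over arrays that ignored the groups, *Dusp1* (0.98), *Junb* (0.98) and *Egr2* (0.94). *Jun* was at 0.90, while *Dusp1* and *Junb* passed by rho. With 3 arrays per group a shuffle within groups has few orders, so these calls in the *Insig* line cannot be relied on. Over the 15 arrays outside the newborn ScapΔ/Δ group 6 passed by r and 3 by rho, and *Nr4a1* (0.04) and *Egr1* (0.22) were nearly unrelated to *Fos*.

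**Figure D5:**
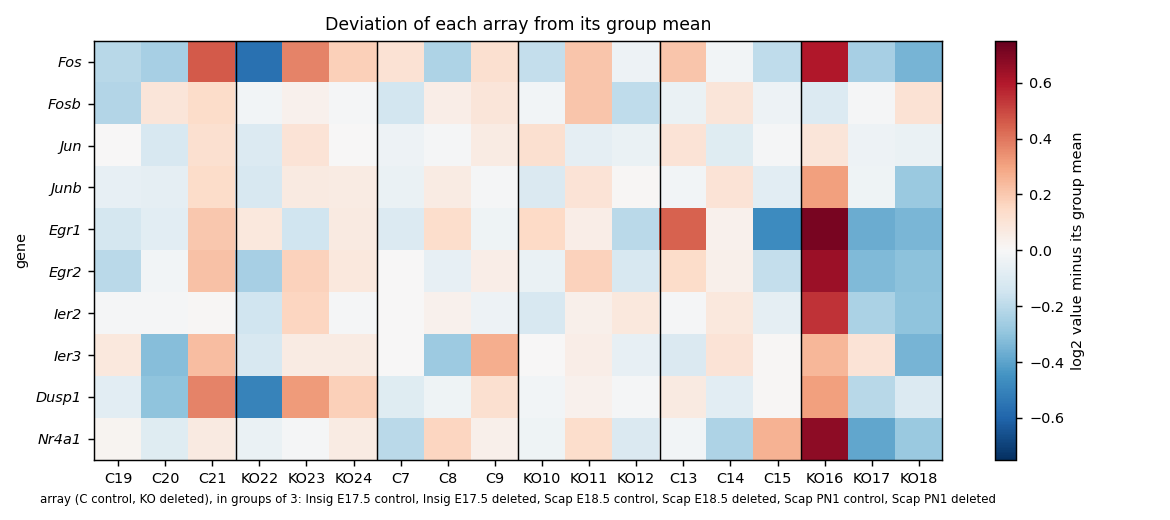
Log2 value of each immediate early gene (rows) on each array (columns, in groups of 3) minus its group mean, on a color scale from -0.75 (blue) to 0.75 (red). KO16 is above its group mean in every row but *Fosb*, and *Fos*, *Egr2* and *Dusp1* share their colors across C19 to KO24.

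Over those 15 arrays the probe sets whose deviations were most like the mean of the 10 members, of 16271 candidates with a single symbol, were *Tsc22d3* (r = 0.95), *Isca1* (0.94), *Phospho1* (0.94), *Tlcd4* (0.94) and *Tor4a* (0.93). These values are descriptions of 15 arrays and carry no test. The r of *Fos* was 0.96 with *Tor4a* and 0.94 with *Tlcd4*, and over the same arrays 0.90 with *Egr2* and 0.88 with *Dusp1*. The genes outside the list were picked by likeness to a mean that includes *Fos*. Their high r with *Fos* thus comes in part from the pick, and the comparison with the members is uneven. The largest deviations of *Fos* over these arrays were in the *Insig* line (KO22 -0.56, C21 0.46 and KO23 0.37), whose arrays split across genotype. *Tsc22d3*, a leucine zipper gene induced by glucocorticoids, followed *Fos* (r = 0.95) and *Dusp1* (r = 0.95) within groups but *Egr1* less (r = 0.31). Between stages it went against them: it was 10.71, 10.67 and 10.90 in the E18.5 controls and 10.28, 10.04 and 9.98 in the PN1 controls, a fall by 0.66 (SE 0.14, limma adjusted p = 0.0368). Among the members, the r of each with the mean of the other 9 ran from 0.88 for *Egr2* and 0.86 for *Fos* to 0.21 for *Egr1* and 0.11 for *Nr4a1*.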

How the data were processed

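The deposited table held 1 log2 value per probe set and array, made by the authors from Mouse Gene ST arrays (GeneSpring GX in their methods); the summarization and normalization steps are not given in the sources used here, and array medians lay between 7.42 and 7.70. Of 35556 probe sets 21789 had 1 gene symbol, 1621 several and 12146 none in the platform annotation, and no column was left unmapped. Members and gene lists were chosen with earlier results of these data known, and no list is independent evidence.

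Probe sets below the 35th percentile of an array were dropped unless 66% or more of a line's arrays had them above it. Group means were fitted with limma 3.58.1 (lmFit, eBayes; R 4.3.3), 12 *Scap* and 6 *Insig* arrays separately, with p-values adjusted by Benjamini-Hochberg over all probe sets of a fit; calls had an adjusted p under 0.05. SE values are those of the fit. Members were named in every comparison; from the other lists up to 4 called genes with the largest change were named, and where none was called up to 3 further primary response genes whose groups were separate, exceptions being remaining called genes given by name only and *Ptgs2*, named in ScapΔ/Δ lungs after its values were seen. One probe set per gene was used, that with the highest mean. Relations used scipy 1.17.1. The filter, normalization, arrays fitted, variance model, array weights and each array were varied. The script was tested on simulated data. The number of arrays limits the precision.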

Additional observations from a re-analysis of the deposited data

How the results depend on the processing

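Most values kept their direction and their side of the threshold, but counts of calls in the *Scap* line moved with the arrays fitted. Of the counts of immediate early genes called, with all 18 arrays in 1 fit the count for *Scap* deletion at PN1 was 1 and for stage in controls 4. That fit called 4.61% of all probe sets higher and 8.58% lower for *Scap* at PN1. For stage in controls it called 1.75% higher and 2.04% lower. The member count for stage in controls was 1 without the filter and 1 of 8 with the filter at the 50th percentile, which dropped *Egr2* and *Fosb*. It was 0 with arrays centered on their medians (0.526% of all probe sets called higher). With only the groups compared (5.71%) or with array weights (6.13%) it was 8. For stage in ScapΔ/Δ lungs it was 2 with arrays centered (8.75%), 0 with only the groups compared (0.0833%) and 0 by the Student test. Shares without the filter, at the 50th percentile and by the Student test are not given. With array weights the member count was 7 for *Scap* at PN1, 6 for *Insig1/2* and 5 for the difference of the *Scap* effects. Of the further primary response genes, array weights called 5 for *Scap* at E18.5, 29 at PN1, 15 for *Insig1/2*, 23 for the difference of the effects, 25 for stage in controls and 26 in ScapΔ/Δ lungs, of 44 each, where array weights called 11.2%, 68.1%, 36.7%, 64.4%, 12.5% and 76.1% of all probe sets in the same order. All 18 arrays in 1 fit called 5 for *Scap* at PN1, 1 higher and 4 lower, against 4.61% and 8.58% of all probe sets. For stage in controls the count was 6 without the filter, 3 with arrays centered, 23 with only the groups compared, 5 by the Student test and 24 without KO17 and KO18, and in ScapΔ/Δ lungs 2 with only the groups compared and 0 by the Student test. Of all probe sets, centered arrays called 0.526% higher and 0.754% lower for stage in controls, and only the groups compared 5.71% and 5.4%. In ScapΔ/Δ lungs only the groups compared called 0.0833% higher and 0.197% lower. Fitting fewer arrays changed the spread by construction. For the other settings the cause was not tested. The estimation of array weights did not converge.

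Without KO17 and KO18 the median of the members was 0.08 for *Scap* at PN1, 0.14 for the difference of the effects and 0.73 for stage in ScapΔ/Δ lungs. The PN1 values of *Fos*, *Egr1*, *Nr4a1* and *Ier2* became 0.06, 0.18, 0.43 and 0.36, and the difference of the effects for *Fos* became 0.10. The stage difference of *Egr2* in ScapΔ/Δ lungs, not called, was -0.08 with quantile normalization, -0.01 with centered arrays and -0.10 with array weights. Relations with *Fos* that passed by r numbered 5 without the 2 farthest arrays and 3 within the *Insig* arrays, by shuffles that ignored the groups.

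With each array left out in turn, the members called ranged from 0 to 8 for *Scap* at PN1, 0 to 4 for the difference of the effects (median -0.41 to -0.04), 0 to 8 for stage in controls and 2 to 4 in ScapΔ/Δ lungs. The further primary response genes called ranged from 0 to 28, 0 to 26, 3 to 25 and 11 to 27 in the same order. The highest count was without KO16 in each, except that of the members for stage in ScapΔ/Δ lungs. Without KO16, 24.1%, 24.9%, 6.06% and 32.1% of all probe sets were called higher in the same order, and 37.8%, 33.5%, 5.95% and 40.0% lower. The counts in comparisons with the newborn ScapΔ/Δ group thus read against a large background. Shares in the other fits with 1 array left out are not given. *Fos* in the *Insig* line ranged from -0.07 to 0.40, the stage difference of *Ier3* in controls from -0.01 to 0.26 and that of *Egr2* in ScapΔ/Δ lungs from -0.16 to 0.33. Array numbers never recur between groups. No paired analysis was possible because the groups share no replicate number. For *Insig1/2*, a fit of only the groups compared is the reported one. Signals near background understate differences on arrays.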

Other observations

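Upstream signal and transcription factors, which act on the members (16 of 20 listed genes tested, among them serum response factor, its partners and MAP kinases), gave 0 calls between E18.5 and PN1 in control lungs by limma (0 at an unadjusted p under 0.05 and 0 by the Student test). In ScapΔ/Δ lungs, where 17.5% of all probe sets were called higher and 20.1% lower, *Egfr* rose by 0.53 (SE 0.18, limma adjusted p = 0.0407), and *Creb1*, which encodes CREB, fell by 0.54 (SE 0.10, adjusted p = 0.00754) and *Mapk14* fell by 0.26 (SE 0.08, adjusted p = 0.0301). *Egfr* was 9.49, 9.29 and 9.24 there at E18.5 and 9.42, 10.02 and 10.17 at PN1 (KO16, KO17 and KO18). Its groups overlapped, with KO16 inside the fetal range. The stage difference of the upstream factors had a median of 0.01 in controls and -0.02 in ScapΔ/Δ lungs.

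Of 9 glucocorticoid-induced genes tested, 1 rose and 2 fell between the stages in each genotype. In controls 1.19% of all probe sets were called higher and 1.39% lower. The shares were 17.5% and 20.1% in ScapΔ/Δ lungs, so the counts there are near the background. *Sgk1* rose, whereas *Fkbp5*, a cochaperone of the glucocorticoid receptor, fell by 0.99 in controls (SE 0.18, limma adjusted p = 0.0181) and by 0.85 in ScapΔ/Δ lungs (SE 0.18, adjusted p = 0.0107), and *Tsc22d3* fell in both. *Sgk1* is also on the list of further primary response genes. Macrophage and monocyte, endothelial, erythroid and cardiac markers gave 0 calls in controls by limma between the stages. At an unadjusted p under 0.05, 1 of 8, 1 of 7, 1 of 3 and 3 of 8 of them were higher and none was lower, against 6.21% and 7.25% of all probe sets. Markers separate and higher at PN1 numbered 2, 2, 2 and 6 in the same order, against 17.6% of all probe sets. Those separate and lower numbered 2, 1, 1 and 0, against 16.5%. In ScapΔ/Δ lungs 2 macrophage and monocyte markers rose and 3 fell, 1 endothelial marker rose and 1 fell, 1 erythroid marker fell and 2 cardiac markers rose, where 17.5% of all probe sets were called higher and 20.1% lower.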
